A study of Mus musculus with 8 samples.

Results

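The comparison set DNBrg1 cells without tetracycline, in which a dominant-negative Brg1 was induced, against DNBrg1 cells with tetracycline, in which it was repressed. Both were derived from 3134 cells, a mouse mammary epithelial line, and their accessible chromatin was measured by DNase-seq, the sequencing of fragments that DNase I releases from nuclei at open DNA. Hotspots, the regions enriched in cuts, were joined into a site where those of the DNBrg1 lists shared 1 bp or more. The highest peak tag density of its hotspots stands for a site in each library. This gave 36114 sites, of the 99999 sites that the 8 lists of the study give when merged. The 8 libraries came from the DNBrg1 line, from lines with dominant-negative Chd4 (DNCHD4) and Snf2h (DNSnf2h), and from the parental line, each measured once without and once with tetracycline. The regulated lines were kept in 5 µg/ml tetracycline, which holds the dominant-negative protein off, and tetracycline was left out for 48 hours before harvest in the libraries without it. The parental pair shows, by the same assay, what tetracycline removal itself went with. The protocols in the labels describe the making of the Snf2h and Chd4 constructs and not that of Brg1, and do not say whether a line is 1 clone. No value in the lists measures the induced protein, and marker genes were not checked because no annotation of mm9, the build of the lists, was used here.

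Brg1 is the ATPase of SWI/SNF complexes, which use ATP to slide or evict nucleosomes and so open DNA to transcription factors. A form that cannot use ATP still enters the complexes and blocks them, which is why such a protein is called dominant negative. A DNase I hypersensitive site is a stretch from which nucleosomes were displaced, most often a promoter, an enhancer or an insulator. In a bulk library, fewer cells with an open site and less opening per cell cannot be told apart.

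The DNBrg1 lists held 30423 hotspots without and 29379 with tetracycline, and the parental lists held 35071 and 35083. Peak densities in a list are whole multiples of the value of 1 tag, so that the lowest hotspot rested on 36 tags without and 28 tags with tetracycline in DNBrg1 cells, and the median hotspot on 81 and 65 tags. The value of 1 tag was 0.255 without and 0.586 with tetracycline in DNBrg1, and 0.257 and 0.310 in parental cells. A given density thus rested on the fewest tags in the DNBrg1 library with tetracycline. The part of this mismatch in the spread and the listing given below was not tested. The lists also began at unlike densities, 9.19 without and 16.4 with tetracycline, so a site absent from a list may lie below its threshold. Its hotspot may also have been removed, since the hotspot numbers of the lists skip 5729 values without and 6660 with tetracycline. Each group has 1 library. No difference below has a replicate check, no p-value is given, and the intervals, at 95%, cover counting error only.

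More sites were lower than higher without tetracycline in DNBrg1 cells, and the parental pair showed no such imbalance on the same scale. As deposited, the log2 ratio of density without over with tetracycline had a median of -0.64 over the 23046 DNBrg1 sites in both lists, and of -0.40 over the 29355 parental ones. Because the labels and headers do not state how the libraries were scaled, that median was set to 0 in each line and changes are given relative to it. After this centring 3263 DNBrg1 sites (9.04% of all) were lower by 2-fold or more, and 1059 (2.93%) were higher by as much. In parental cells 926 sites (2.31%) were lower and 1043 (2.6%) higher. Lower sites thus made up 75.5% of the changed sites in DNBrg1 and 47.0% in parental cells. As deposited the split was 99.0% in DNBrg1 and 93.4% in parental cells, with 29.4% of DNBrg1 sites lower and 0.291% higher, beside 9.69% and 0.681% of parental sites.

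DNBrg1 sites were listed in both libraries less often than parental sites. The share in both lists was 63.8% in DNBrg1 and 73.2% in parental cells, the share listed without tetracycline alone was 19.9% and 13.1%, and the share listed with tetracycline alone was 16.3% and 13.7%. For a site in 1 list, the lowest density anywhere in the other list was used in place of the missing value, and its ratio is a bound. In DNBrg1 cells 1664 lower and 409 higher sites rest on such a bound. The bound does not hold where a hotspot was removed from the other list. A number was missing there for 12.4% of these lower and 30.6% of these higher sites, and without them 3056 lower and 934 higher sites remained in all. The bounds do not treat the directions alike: the call of a site in 1 list as lower needed a density of 28.7 with tetracycline, and the call as higher needed 21.0 without it, which is 32.8 on the scale with tetracycline. Counts over sites in both lists avoid the bound. They were 1599 lower (6.94%) and 650 higher (2.82%) in DNBrg1, and 536 lower (1.83%) and 611 higher (2.08%) in parental cells. The exact interval of the ratio lay wholly beyond 2-fold for 600 of the 1599 lower and 131 of the 650 higher DNBrg1 sites. The same held for 98 of the 536 lower and 166 of the 611 higher parental sites.

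**Figure D1:**
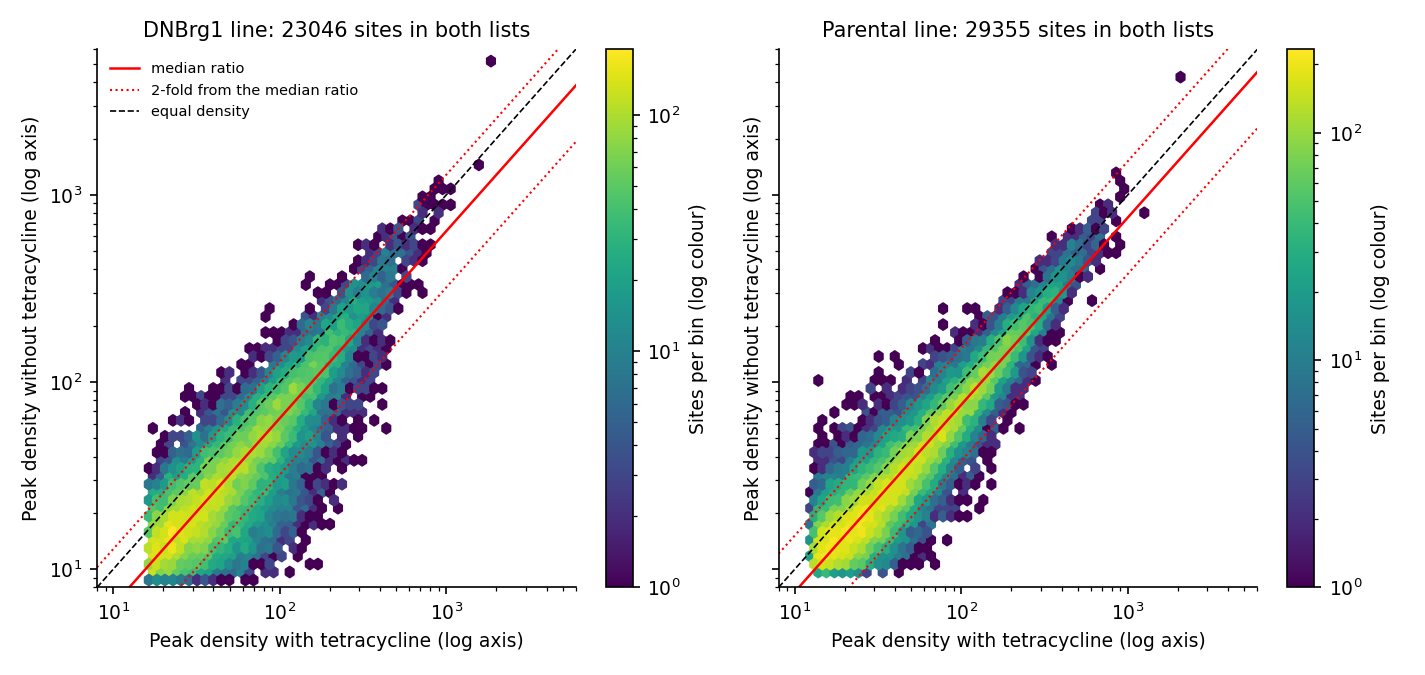
Peak density of each site in both lists without (vertical, log axis) against with tetracycline (horizontal, log axis), for the DNBrg1 line on the left and the parental line on the right; colour gives the number of sites per bin, the red line the median ratio, the dotted lines 2-fold from it and the dashed line equal density. The DNBrg1 cloud is wider than the parental one (SD of the log2 ratio 0.61 and 0.46), with more sites under the lower dotted line (1599 and 536).

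The ratios were more scattered in DNBrg1 than in parental cells in each of 5 classes of strength, and by more than tag counting gives. The centred log2 ratios had quartiles of -0.38 and 0.35 in DNBrg1, and of -0.28 and 0.28 in parental cells. With sites split into 5 classes of equal number by the geometric mean of their 2 densities, the spread in DNBrg1 (an SD taken from the quartiles, log2) was 0.44, 0.63, 0.61, 0.55 and 0.44 from the weakest to the strongest class. Counting alone would give 0.31, 0.26, 0.22, 0.17 and 0.11. Parental sites, classed in the same way by their own densities, had a spread of 0.39, 0.50, 0.46, 0.39 and 0.32, with counting at 0.28, 0.23, 0.19, 0.14 and 0.09. How much of either spread is variation between cultures or digests was not tested, since no group has a second library. Densities without and with tetracycline had a Spearman rho of 0.823 across the 23046 DNBrg1 sites and of 0.897 across the 29355 parental sites, each a description of sites that share their libraries.

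The libraries can also be set against their parental counterparts, over sites listed in all 4 lists and with each median ratio set to 0. At the 1520 lower sites the median log2 ratio of DNBrg1 cells without tetracycline to parental cells without it was -0.98 (quartiles -1.51 and -0.48). In DNBrg1 cells with tetracycline the same sites stood at 0.05 to parental cells with it (quartiles -0.33 and 0.47). The 591 higher sites stood at 0.53 without and -0.22 with tetracycline, and the 18615 other sites at 0.03 and 0.00. These sites were chosen by the DNBrg1 densities, so the values describe where the difference lay: for lower sites in the library without tetracycline, and for higher sites in both libraries in opposite directions.

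Lower sites were most frequent at middle width, while their course over strength depended on how strength was read. To keep the classes apart from the compared densities, width and peak density were read from DNCHD4 cells with tetracycline, a library of neither pair, in which 22346 of the 23046 shared DNBrg1 sites were listed. This source was chosen after the data were seen. It shares its tetracycline state with the treated side of each pair, and lower DNBrg1 sites were also lower without tetracycline in DNCHD4 cells. No library without tetracycline was read in this way. Over 5 classes of width, the share of lower DNBrg1 sites was 2.60% in the narrowest, then 6.83% (650 to 761 bp), 11.7% (762 to 915 bp), 8.41% (916 to 1193 bp) and 5.63% in the widest. In parental cells it was 0.624%, 1.76%, 3.21%, 2.50% and 1.17%. The rise and fall over the width classes was thus common to both pairs, at a higher level in DNBrg1. Over 5 classes of strength from DNCHD4 cells, the share of lower sites among the shared DNBrg1 sites was 2.00%, 4.38%, 7.08%, 10.6% and 11.1% from the weakest to the strongest. The parental share was 0.204%, 1.46%, 3.65%, 3.01% and 1.31%. In the strongest class, of a density of 120 or more in DNCHD4 cells, the shares were 11.1% (interval 10.2 to 12.0) in DNBrg1 and 1.31% (1.02 to 1.68) in parental cells. With sites in 1 list counted by their bounds, the DNBrg1 shares were 3.82%, 10.1%, 14.4%, 15.2% and 12.2%. With strength read from parental cells with tetracycline, the shared DNBrg1 sites gave 2.72%, 5.10%, 8.55%, 10.6% and 9.11%. Both of these series were highest in the class next to the strongest. Higher sites showed no such course, with 2.30% to 3.38% over the DNBrg1 classes of strength.

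The thresholds limit the weak classes, because a site in both lists could be called lower only where tetracycline-treated cells had a density of at least 28.7. By the geometric mean of its own 2 densities, a lower site moves to a weaker class, since 1 of the densities is the lowered one. The lower share was then 2.52%, 9.13%, 11.7%, 8.31% and 3.02% in DNBrg1 from weakest to strongest, and 0.460%, 3.66%, 3.03%, 1.64% and 0.341% in parental cells. The strongest class thus held 3.02% lower sites by its own densities and 11.1% by those of DNCHD4 cells. By the width of the DNBrg1 site itself the order resembled that from DNCHD4 cells, with 3.06%, 7.36%, 11.3%, 9.27% and 3.63% from narrow to wide.

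Among strong sites, the narrow ones were lower most often. In the strongest of 3 classes of DNCHD4 density, from 80.7, the lower share in DNBrg1 was 14.2% (12.9 to 15.7) for sites of up to 919 bp. It was 11.6% (10.4 to 12.9) from 920 to 1224 bp and 7.19% (6.24 to 8.27) for wider sites. Parental cells had 2.18%, 2.31% and 0.987% in these classes. In the middle class of strength the DNBrg1 shares were 8.37%, 9.59% and 4.10%, narrow to wide, and in the weakest 1.51%, 3.34% and 3.26%. Width and strength go together, with a Spearman rho of 0.716 across the 23046 shared sites, which is why width was read within classes of strength here.

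**Figure D2:**
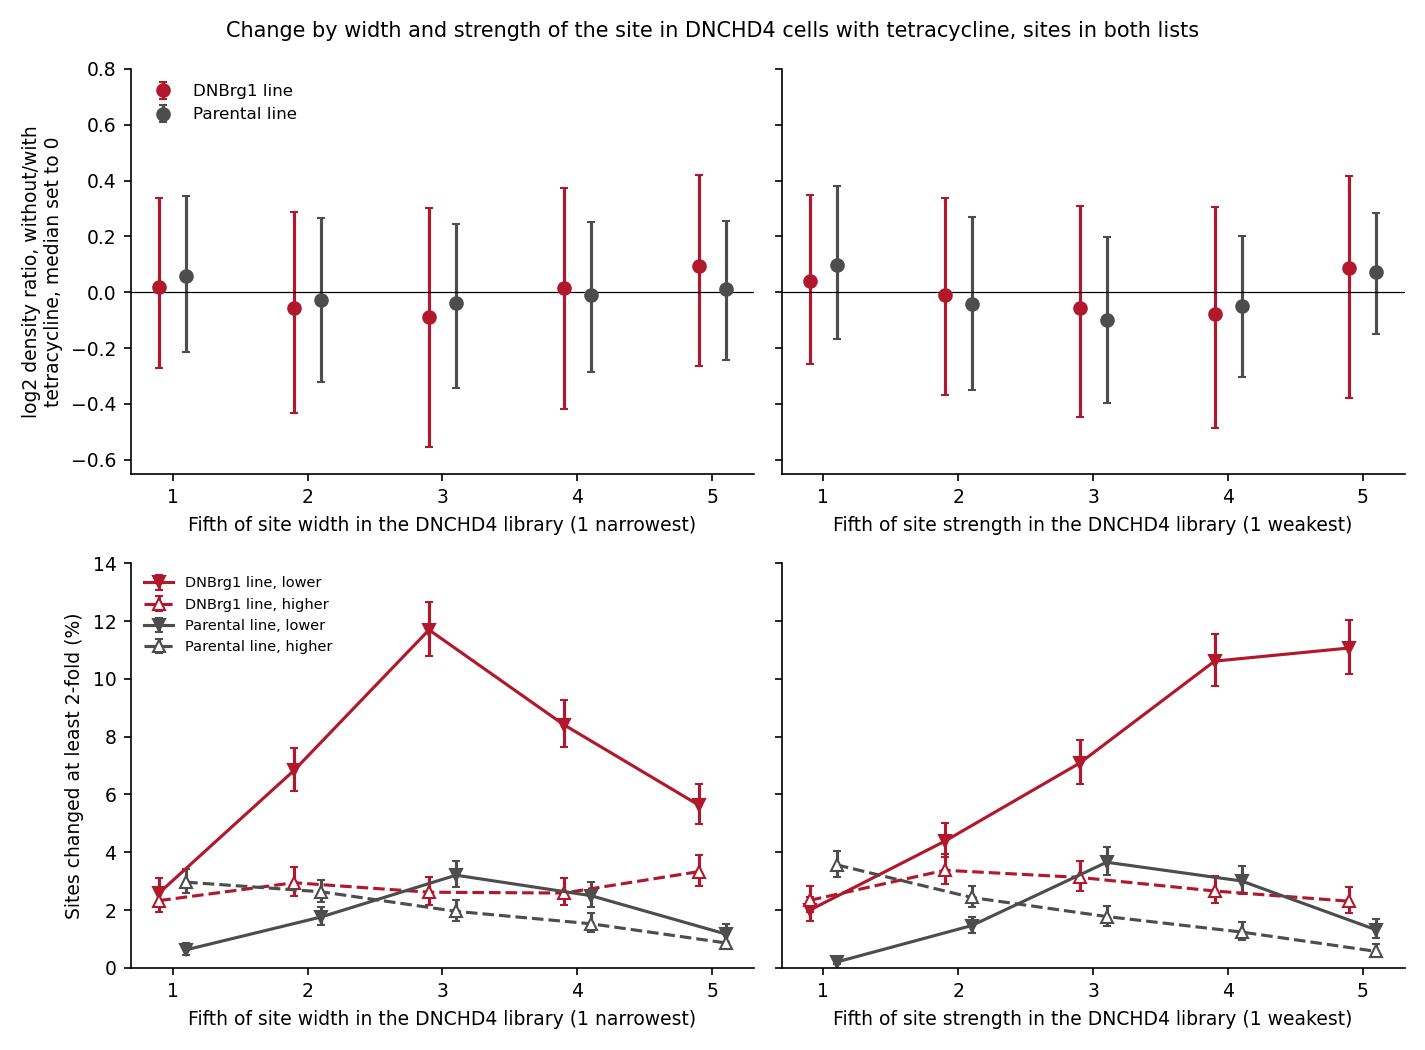
Top, median and quartiles of the centred log2 ratio without over with tetracycline, and bottom, percent of sites at least 2-fold lower (filled, solid) or higher (open, dashed) with 95% Wilson intervals, by 5 classes of site width (left) and strength (right) read from DNCHD4 cells with tetracycline; DNBrg1 line in red, parental line in grey. The DNBrg1 share of lower sites peaks at 11.7% in the middle width class and reaches 11.1% in the strongest class, where the parental share is 1.31%.

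The median change was small beside these shares. Over the width classes from DNCHD4 cells the DNBrg1 median was 0.02, -0.06, -0.09, 0.01 and 0.10, and over the strength classes it was 0.04, -0.01, -0.06, -0.08 and 0.09. In the strongest class the DNBrg1 quartiles were -0.38 and 0.42, against -0.15 and 0.28 in parental cells, where the median was 0.07. Relative to the median site, the strong class was thus wider on both sides, with its median above 0 and 11.1% of its sites past 2-fold below. Centring removes a shift common to all sites, so these values cannot show whether strong sites shifted as a body. By the geometric mean of its own densities, the strongest DNBrg1 class had a median of -0.44 as deposited.

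The shape of a site, its mean over its peak density, separated lower sites less. A low ratio is a sharp peak on a broad low base and a high ratio a flat-topped site. Over 5 classes from peaked to flat in DNCHD4 cells, 6.51%, 7.72%, 9.20%, 6.94% and 4.81% of the shared DNBrg1 sites were lower, and 1.64%, 2.15%, 2.26%, 1.76% and 1.28% of the parental ones. Higher DNBrg1 sites made up 3.71% of the most peaked and 2.19% of the flattest class. The medians of the DNBrg1 classes lay between -0.04 and 0.05. Shape was itself tied to width, with a rho of -0.679 across the shared sites.

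Sites in crowded stretches were lower somewhat more often than isolated ones. Of the shared DNBrg1 sites, 5.53% were lower with no other site within 50 kb, 5.87% with 1 to 2, 7.34% with 3 to 5, 8.31% with 6 to 10 and 7.85% with 11 to 20. The parental shares were 1.46%, 1.80%, 1.95%, 1.90% and 1.37%. Listing moved more clearly with crowding, in both lines. With no other site within 50 kb, 32.5% of DNBrg1 sites were listed without tetracycline alone and 12.9% with it alone. With 6 to 10 sites the shares were 13.2% and 19.3%. The parental shares were 19.8% and 13.1% with no other site, and 9.35% and 14.7% with 6 to 10, so the order reversed there too. Isolated DNBrg1 sites were also weaker, with a median geometric mean density of 37.2 for the shared ones, against 49.98 with 6 to 10 sites near.

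A further 51 sites had over 20 other sites within 50 kb. Of these, 45 lie on chromosome 11 from 3023556 to 3099976, 4 on chromosome 13 and 2 on chromosome 8. Their median centred log2 ratio was 0.56 in DNBrg1, over the 31 in both lists, and the parental sites of such stretches had 0.51. Leaving them out left 3263 lower and 1039 higher DNBrg1 sites.

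The changes of neighbouring sites were weakly correlated, with a higher r in DNBrg1 than in parental cells in each of 4 ranges of distance. The Pearson r of the log2 ratios of adjacent DNBrg1 sites was 0.254 under 2 kb (1675 pairs), 0.217 from 2 to 10 kb (4141 pairs), 0.129 from 10 to 50 kb (8533 pairs) and 0.103 from 50 to 200 kb (6234 pairs). The parental values were 0.212, 0.123, 0.093 and 0.065. Over these ranges, near to far, the neighbour of a lower DNBrg1 site was itself lower in 17.5%, 18.5%, 13.02% and 10.0% of cases, while 5.46%, 8.09%, 7.20% and 6.89% of all sites in such pairs were lower. In parental pairs the neighbour of a lower site was lower in 2.86%, 2.26%, 3.62% and 5.45% of cases, and 1.29%, 1.98%, 1.93% and 1.73% of all sites were. The parental shares rest on 1, 3, 8 and 6 pairs with both sites lower. In each range and both lines the share at the neighbour of a lower site was above that of all sites. Whether the lines differed in this was not tested, and at 50 to 200 kb the parental shares stood further apart in proportion. These pairs share their libraries, and the correlations describe them.

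**Figure D3:**
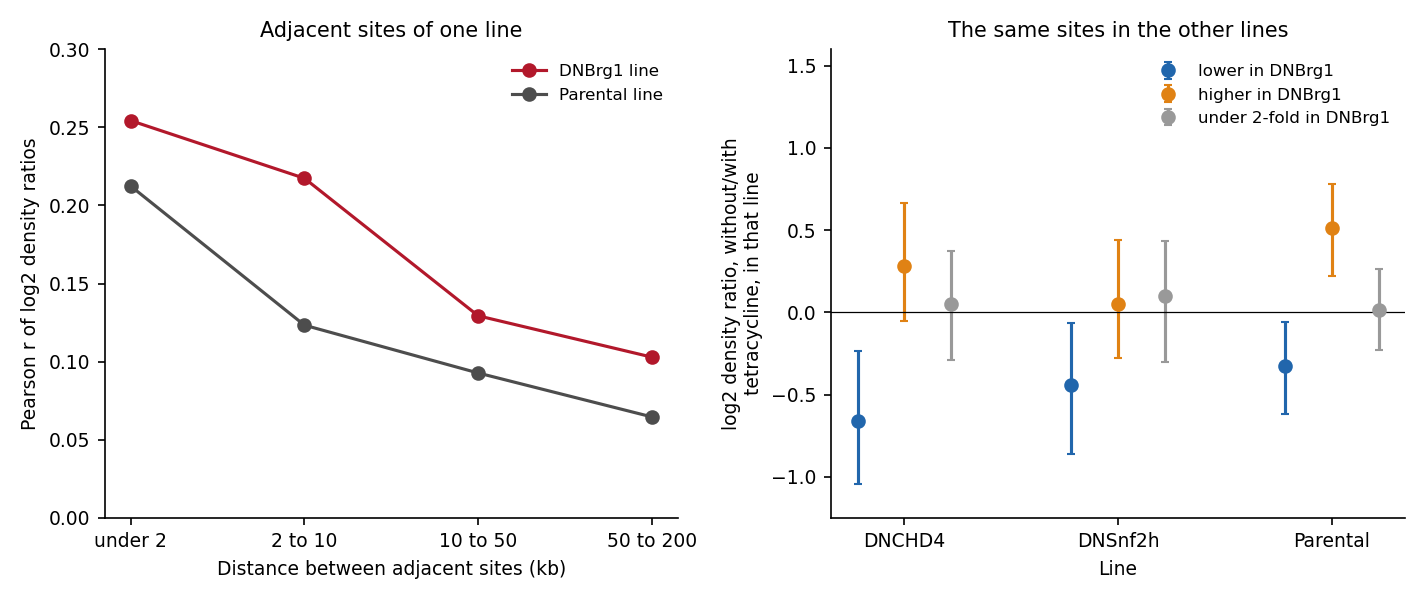
Left, Pearson r of the log2 ratios of adjacent sites by distance in kb, DNBrg1 line in red and parental line in grey. Right, median (points) and quartiles (bars) of the centred log2 ratio in DNCHD4, DNSnf2h and parental cells for sites lower, higher or changed under 2-fold in DNBrg1. DNBrg1 r declines from 0.254 to 0.103 with distance, and lower DNBrg1 sites have medians of -0.66, -0.44 and -0.33 in the 3 lines.

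Most lower DNBrg1 sites were sites that all lines shared. Of the 3263 lower sites, 58.4% were listed in all 6 libraries of the other lines and 1.69% (55 sites) in none of them, against 52.3% and 2.64% (28 sites) of the higher and 37.9% and 5.67% of the other sites. The other sites include weak ones, under a density of 28.7 with tetracycline, that could not be called lower. They are thus not a like comparison, and one limited to sites that could be called was not made. Among the 12725 shared DNBrg1 sites that all 6 other libraries also listed, 9.71% (9.21 to 10.2) were lower and 3.58% (3.27 to 3.92) higher. In parental cells the same 12725 sites were lower in 1.38% (1.19 to 1.59) and higher in 1.89% (1.66 to 2.14) of cases. The SD of the log2 ratio over them was 0.68 in DNBrg1 and 0.43 in parental cells. These sites carried hotspots in every library of the study, so no bound enters their calls, though the list thresholds still limit which weak sites could be called.

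The share of lower sites was least at middle numbers of listings. It was 5.24%, 3.74%, 2.54%, 2.20%, 2.62% and 4.99% of the shared sites in 0, 1, 2, 3, 4 and 5 other libraries, and the first of these classes held 286 sites (interval 3.20 to 8.47). Sites in more libraries were also stronger, with a rho of 0.615 between the number of libraries and density. Within the class of second-highest DNCHD4 density, 11.1% (10.1 to 12.1) of sites in all 6 other libraries were lower, against 6.49% (4.55 to 9.16) of those in 4 or 5. In the weakest class the shares were 2.11% (0.904 to 4.84) and 1.84% (1.41 to 2.39), and their intervals overlapped. Higher sites also went with listing, so it was not particular to lower sites. In the class of second-highest density 2.85% of sites in all 6 were higher, against 0.895% of those in 4 or 5. In the weakest class these shares were 8.86% and 2.31%. The strongest class was the exception, with 2.30% and 2.56%, the latter over 39 sites.

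**Figure D4:**
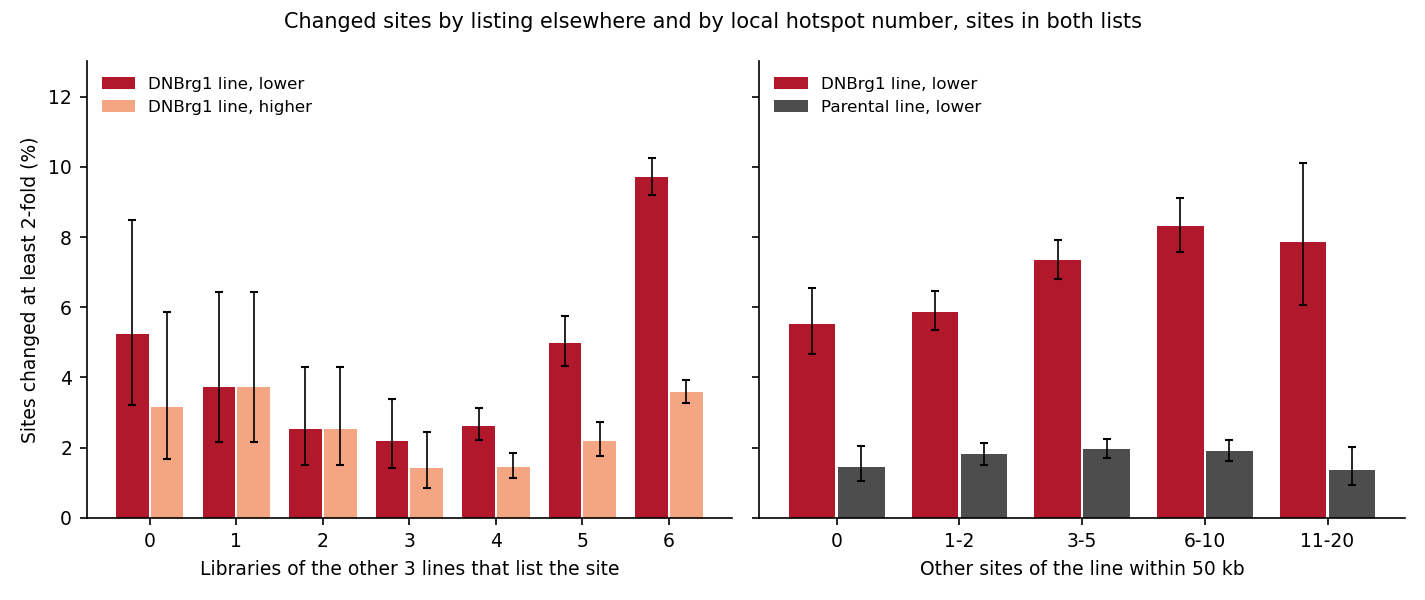
Percent of sites in both lists changed at least 2-fold after centring, with 95% Wilson intervals; left, DNBrg1 sites lower (dark) and higher (light) by the number of libraries of other lines that list the site; right, lower sites of the DNBrg1 (red) and parental (grey) lines by the number of other sites within 50 kb. The DNBrg1 lower share is 9.71% for sites in all 6 other libraries, and lies between 5.53% and 8.31% over the plotted classes of 0 to 20 neighbours, above the parental bars.

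Sites listed in 1 DNBrg1 library were weak and narrow on either side, but differed in how far other lines listed them. The 7186 sites listed without tetracycline alone had a median density of 12.0 and a median width of 495 bp, and the 5882 listed with tetracycline alone had 22.8 and 531 bp, beside 720 bp for sites in both lists. Parental hotspots overlapped 48.6% of the sites listed without and 78.4% of those listed with tetracycline alone. No other library listed 17.6% of the first kind and 5.64% of the second, and all 6 listed 7.21% and 21.4%. The list without tetracycline reached lower, to a density of 14.3 on the scale of the list with it, which began at 16.4, and the part of this difference in the listing was not tested.

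Taken from the parental side, the 29355 sites in both parental lists were listed in both DNBrg1 libraries in 70.5% of cases, without tetracycline alone in 5.85%, with it alone in 11.003% and in neither in 12.6%. Listing depended on strength. Over 5 classes of parental density, from weakest to strongest, 34.4%, 52.7%, 75.4%, 91.2% and 98.7% were in both DNBrg1 lists. In the class of second-highest density 1.09% were listed without and 6.15% with tetracycline alone, and in the strongest class 0.221% and 0.852%.

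Hotspots narrowed where density was lower, in DNBrg1 and in parental cells. Over 22483 DNBrg1 sites made of 1 hotspot in each list, the median width was 663 bp without and 655 bp with tetracycline, a median log2 ratio of 0.04. For the 1581 lower sites among them it was 586 bp without and 720 bp with tetracycline (-0.29), and 11.3% were wider without it. For the 626 higher sites it was 776 bp without and 612.5 bp with tetracycline (0.28), and 89.6% were wider. The change in width and that in density had a rho of 0.539 across the 22483 sites, and hotspot ends depend on each list's density threshold. The 526 lower parental sites had 575.5 bp without and 752 bp with tetracycline (-0.37), and 2.09% were wider without it. The 605 higher parental sites had 742 bp and 629 bp (0.21), and 84.5% were wider. Over all parental sites of this kind the median width was 672 bp without and 708 bp with tetracycline (-0.07), so the small widening over all DNBrg1 sites had the opposite sign there. The mean over peak density was 0.282 without and 0.295 with tetracycline in DNBrg1 (log2 ratio -0.06), against 0.284 and 0.286 in parental cells. Sites split into more hotspots in 1 list did so in 131 cases without and 377 with tetracycline in DNBrg1, and in 391 and 145 cases in parental cells.

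Medians of the autosomes lay close together, and that of the X chromosome lay above them. The median centred log2 ratio of the 19 autosomes ran from -0.06 to 0.04 in DNBrg1, and their share of lower sites from 6.40% to 12.1%. On the X chromosome the median was 0.13 over 442 shared sites, with 3.59% of its 668 sites lower and 3.44% higher. The parental X median was 0.02. By geometric mean density, from the weakest to the strongest of 5 classes, the DNBrg1 median was -0.11, 0.12, 0.11, 0.19 and 0.33 on X, and -0.04, -0.07, -0.09, -0.04 and 0.21 on autosomes, so X lay below the autosomes in the weakest class and above them in the others. The X classes held 76 to 107 sites. In parental cells X also lay below the autosomes in the weakest class (-0.03 and 0.04) and above them in the others, with 0.11 and 0.08 in the strongest. Copy number or silencing of this chromosome in the cells was not measured.

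Sites that were lower in DNBrg1 were, by their medians, also lower in each other line. Each line has its own pair of libraries, so no library is shared. At lower DNBrg1 sites in both lists, the centred median was -0.66 in DNCHD4 (1565 sites), -0.44 in DNSnf2h (1250 sites) and -0.33 in parental cells (1520 sites). In DNCHD4 423 of these sites were themselves 2-fold or more lower (27.0%, against 6.07% of all sites shared with that line), in DNSnf2h 220 (17.6%, against 5.63%) and in parental cells 114 (against 1.27%). At higher DNBrg1 sites the median was 0.28 in DNCHD4 (617 sites), 0.05 in DNSnf2h (461 sites) and 0.51 in parental cells (591 sites). Sites changed under 2-fold in DNBrg1 had medians of 0.05, 0.10 and 0.02 in these lines. By the median, higher DNBrg1 sites thus did not stand above the other sites in DNSnf2h. Of the higher DNBrg1 sites, 12.3% were 2-fold or more higher in DNCHD4 (4.09% of all shared sites), 7.59% in DNSnf2h (2.84%) and 14.7% in parental cells (1.61%). The order of the lines therefore differed by direction: lower sites had their lowest median in DNCHD4, and higher sites their highest in parental cells. Across all shared sites the Spearman rho with the DNBrg1 change was 0.343 for DNCHD4 (22174 sites), 0.283 for DNSnf2h (12840 sites) and 0.429 for parental cells (20726 sites). The parental pair holds no dominant-negative protein, and what it shares with DNBrg1 is the removal of tetracycline. The part of that removal in the DNBrg1 change was not tested beyond these values.

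With the parental log2 ratio subtracted from the DNBrg1 one at the 20726 sites in all 4 lists, 1377 sites (6.64%) lay 2-fold or more below 0 and 425 (2.05%) as far above it. Over the classes of width of the DNBrg1 site, 5.10%, 7.39%, 9.49%, 7.96% and 3.11% were lower from narrow to wide. Over the classes of geometric mean DNBrg1 density, 5.13%, 8.62%, 9.42%, 7.06% and 2.83% were lower from weak to strong. The strongest class held the smallest share here. Without the subtraction, over all shared sites, the weakest class did (2.52%, against 3.02% in the strongest). In both cases a lower site moves to a weaker class by this measure. Of the 1520 lower DNBrg1 sites with a parental ratio, 77.8% had one below 0, as did 11.2% of the 591 higher sites. A separate count of opposite signs covered 2068 of these sites and not all of them. Among these, 398 (19.2%) had a parental ratio of the opposite sign, and at 2 of them the parental change was itself at least 2-fold.

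The 8 sites with the lowest ratio, of those made of 1 hotspot in each DNBrg1 list and listed in both parental libraries, were strong sites with tetracycline in DNBrg1, DNCHD4 and parental cells. All 8 were listed in all 6 other libraries. Their density in DNBrg1 cells was 9.95 to 17.6 without tetracycline (median 12.4) and 114 to 203 with it (median 150). In parental cells it was 36.8 to 125 without (median 71.3) and 94.9 to 279 with tetracycline (median 156). The DNBrg1 values with tetracycline lay in the range of the parental ones, and the DNBrg1 values without it lay below every parental value. The sites were picked for the lowest DNBrg1 ratio, and the list without tetracycline began at 9.19. A high DNBrg1 value with tetracycline and a low one without it therefore follow from the choice.

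The greatest fall was on chromosome 15 from 62400370 to 62401555, a site of 1186 bp on build mm9 with 1 other site within 50 kb. It had a peak density of 10.5 (41 tags) without and 161 (275 tags) with tetracycline in DNBrg1 cells. Relative to the median shift it was 9.86-fold lower (7.09 to 14.1), and as deposited 15.4-fold lower (11.1 to 21.9). The other pairs, without and with tetracycline, had 34.1 and 161 in DNCHD4 cells, 12.5 and 49.3 in DNSnf2h cells, and 36.8 and 122 in parental cells. The fall was thus present in all lines. The centred log2 ratio was -3.30 in DNBrg1, -2.28 in DNCHD4, -1.96 in DNSnf2h and -1.33 in parental cells. The hotspot was 453 bp wide without and 1186 bp with tetracycline in DNBrg1.

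On chromosome 4 from 114058859 to 114059683 the fall was larger than elsewhere by a wider margin. DNBrg1 cells had 10.97 without and 151 with tetracycline, 8.79-fold lower after centring (6.34 to 12.4). Parental cells had 66.4 without and 94.9 with tetracycline, a centred log2 ratio of -0.11, against -3.14 in DNBrg1. The site was also lower in the other lines, at -1.30 in DNCHD4 (densities of 60.9 and 147) and -0.81 in DNSnf2h. The third of the falls, on chromosome 19 from 47354108 to 47355085, had 17.6 without and 203 with tetracycline in DNBrg1, and 125 and 200 in parental cells. Its centred log2 ratio was -2.89 in DNBrg1, -0.85 in DNCHD4, 0.00 in DNSnf2h and -0.28 in parental cells. At both sites the parental densities differed by under 2-fold and the DNBrg1 densities by over 11-fold as deposited.

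The next falls were on chromosome 10 from 76131436 to 76132216 (9.95 without and 114 with tetracycline), chromosome 2 from 166183122 to 166183982 (11.2 and 128) and chromosome 7 from 90865491 to 90866500 (17.1 and 187). Their centred parental log2 ratios were -1.10, -1.17 and -0.92. The site on chromosome 12 from 109532656 to 109533406 had 14.03 without and 149 with tetracycline, with a parental ratio of -0.32. On chromosome 7 from 137814570 to 137815427 it was 13.5 without and 141 with tetracycline, with a parental ratio of -0.73. The last 2 differed little in DNCHD4 cells, at centred log2 ratios of -0.12 and -0.09. All 8 sites were below 0 after centring in parental and DNCHD4 cells and 7 of 8 in DNSnf2h cells.

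**Figure D5:**
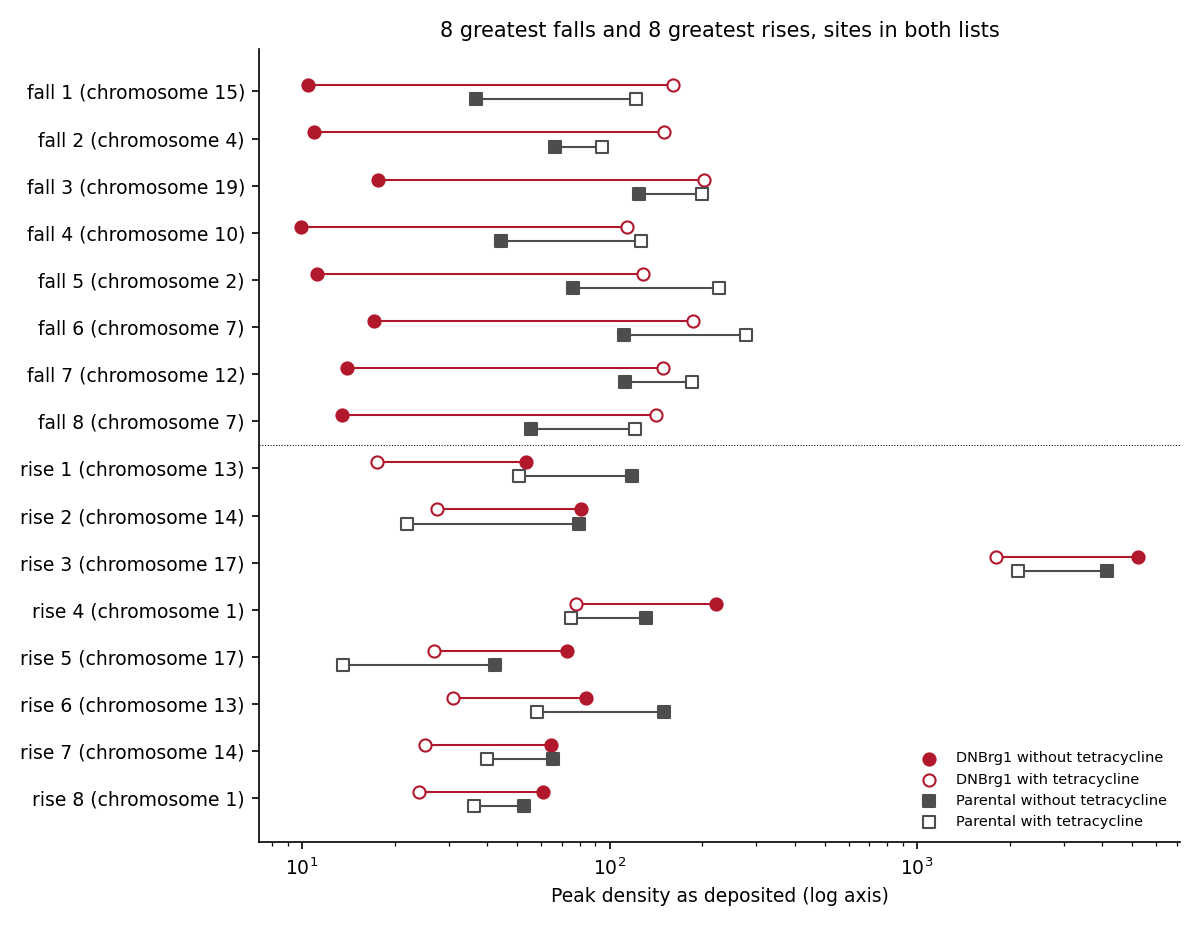
Peak density as deposited (horizontal, log axis) at the 8 greatest falls and the 8 greatest rises of sites in both DNBrg1 lists; DNBrg1 without (filled red circles) and with tetracycline (open red circles), parental without (filled grey squares) and with tetracycline (open grey squares). At the falls the DNBrg1 values without tetracycline, 9.95 to 17.6, lie below all parental values, and at the rises the filled symbols lie right of the open ones in both lines. The sites were picked by the DNBrg1 ratio, which fixes the order of the red symbols.

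The 8 greatest rises were smaller than the falls and were seen in parental cells too. Their centred log2 ratio was 1.98 to 2.25 in DNBrg1 (median 2.12) and 0.94 to 2.26 in parental cells (median 1.49), against -3.30 to -2.74 and -1.33 to -0.11 for the falls. All 8 were above 0 in parental and DNCHD4 cells and 7 of 8 in DNSnf2h cells. The first, on chromosome 13 from 67673441 to 67674054, had a density of 53.6 without and 17.6 with tetracycline in DNBrg1, 4.76-fold higher after centring (3.24 to 7.23), and 118 and 50.8 in parental cells. At the site on chromosome 14 from 106562591 to 106563741, DNBrg1 cells had 80.9 without and 27.5 with tetracycline, while parental cells had 79.5 and 22.01. There the parental rise, at 2.26, was as large as the DNBrg1 rise, at 2.20.

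The third rise was the strongest and widest site of the line, on chromosome 17 from 39979771 to 39985945 (6175 bp). Its density was 5222 without and 1802 with tetracycline in DNBrg1 cells, 4.53-fold higher after centring (4.36 to 4.70). It was higher without tetracycline in every line, with densities of 4689 and 1832 in DNCHD4, of 1459 and 567 in DNSnf2h, and of 4129 and 2126 in parental cells. At chromosome 1 from 194571185 to 194572829 the DNBrg1 density was 222 without and 77.9 with tetracycline, and the parental density 131 and 75.02. Its DNSnf2h ratio, at -0.48, was the exception among the 8. The remaining rises were on chromosome 17 from 92261258 to 92262299 (73.0 without and 27.0 with tetracycline), chromosome 13 from 16830990 to 16832023 (83.7 and 31.1), chromosome 14 from 123932126 to 123932819 (64.3 and 25.2) and chromosome 1 from 184444779 to 184445842 (60.7 and 24.0).

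Among sites in 1 DNBrg1 list, a firmer comparison uses the lowest density that the other list held within 50 kb, where that list had 3 to 20 hotspots. Hotspots are numbered along the genome, and sites at which the other list lacked a number, where a hotspot may have been removed, were passed over. The site on chromosome 1 from 196503834 to 196504737 had 133 with tetracycline, and the list without it held 5 hotspots within 50 kb, the lowest at 13.5, which is 6.30-fold lower after centring. The other falls of this kind were on chromosome 16 from 21318572 to 21319644 (234 with tetracycline, lowest near hotspot 24.0 without it), chromosome 17 from 71635110 to 71635833 (101 and 10.7) and chromosome 7 from 88324175 to 88324967 (89.6 and 9.70). All 4 were listed in all 6 other libraries, with centred parental log2 ratios of -0.35, -0.78, -0.95 and -1.32. Rises of this kind were smaller, from 3.08- to 3.71-fold after centring. The highest was on chromosome 8 from 19932015 to 19932595, at 55.6 without tetracycline and a lowest near hotspot of 23.4 with it, in a stretch of 19 other sites. The others were on chromosome 13 from 49394239 to 49394954 (39.5 without tetracycline), chromosome 13 from 22016395 to 22017065 (42.4) and chromosome 17 from 13915704 to 13916363 (34.7).

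The other strongest sites of the line changed less. On chromosome 13 from 85266194 to 85267362 density was 1373 without and 1585 with tetracycline, a centred log2 ratio of 0.44, against -1.06 in DNCHD4, -1.33 in DNSnf2h and -0.20 in parental cells. The site on chromosome 12 from 98299555 to 98300228 had 1036 without and 1073 with tetracycline, a centred ratio of 0.59, against -1.16, -1.18 and -0.34 in those lines. These 2 sites thus stood above the median of their line in DNBrg1 and below it in the other 3. On chromosome 17 from 34740222 to 34741514 density was 1256 without and 897 with tetracycline, 2.19-fold higher after centring (2.06 to 2.32), with a parental log2 ratio of 0.94. Of the widest sites after the one on chromosome 17, those on chromosome 19 from 5841522 to 5847453, chromosome 4 from 3007043 to 3011778 and chromosome 15 from 61815601 to 61820091 had centred log2 ratios of 0.50, 0.23 and 0.79 in DNBrg1. The parental values there were 0.25, 0.62 and 0.42.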

How the data were processed

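DNase-seq was analysed for DNBrg1 and parental cells, 1 library per group, with the DNCHD4 and DNSnf2h libraries for comparison. CASAVA 1.6 and build mm9 were used, per the submitters' processing notes. The caller was not given in the sources used here, nor were its filters. Each deposited hotspot has, per the file headers, a highest and a mean density, a coverage signal scaled per library by the authors to a target that is not stated. The deposited lists also hold the authors' enrichment score (a z-score) and the authors' p-value per hotspot, neither used here.

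Peak densities were divided by the step of their library, and 100% came out whole within 0.05 tags. Total depth is unknown. At the median hotspot, counting error was 11.1% of density without and 12.4% with tetracycline in DNBrg1. A site was called changed at 2-fold after centring, with exact binomial intervals on tags for ratios and Wilson intervals for shares, both at 95%. Groups were taken from the labels. Named sites were the 8 lowest and 8 highest ratios among sites with 1 hotspot in each list, at most 20 neighbours and a listing in both parental libraries, the 4 greatest falls and rises against local values among sites in 1 list, the 4 strongest, the 4 widest, and the 4 with the largest opposite parental ratio. Sites on chromosome 18 were counted and not named. Members and lists were chosen with earlier results of these data known. Calling was tested on simulated data. The tools were scipy 1.17.1, pandas 2.3.3, numpy 2.4.6 and matplotlib 3.10.9 under Python 3.11.15.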

Additional observations from a re-analysis of the deposited data

Results flagged for a closer look

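At 4 sites past 2-fold in DNBrg1, the DNBrg1 pair moved one way and the parental pair the other way by the largest amounts seen, and the difference between the lines was not tested. On chromosome 3 from 40754371 to 40755718 the centred log2 ratio was 1.12 in DNBrg1 and -2.02 in parental cells. Its density was 29.3 without and 21.1 with tetracycline in DNBrg1, and 27.5 and 148 in parental cells, where the library with tetracycline alone was high. In DNCHD4 cells it was 127 without and 28.3 with tetracycline. On chromosome 1 from 75396190 to 75396980 the ratio was -1.78 in DNBrg1 and 1.13 in parental cells, with densities of 23.0 without and 123 with tetracycline in DNBrg1, and 243 and 147 in parental cells. The site on chromosome 10 from 60738454 to 60739078 had a ratio of 1.05 in DNBrg1 and -0.97 in parental cells, with densities of 33.4 without and 25.2 with tetracycline in DNBrg1, and 15.4 and 39.99 in parental cells. That on chromosome 19 from 10211806 to 10212474 had a ratio of -1.30 in DNBrg1 and 0.95 in parental cells, with densities of 19.9 without and 76.8 with tetracycline in DNBrg1, and 213 and 146 in parental cells. The DNCHD4 ratios at the sites on chromosomes 1 and 19 were 0.24 and 0.51, and the DNSnf2h ratios 0.47 and 0.66, so there DNBrg1 was the line that moved down. After centring, the interval of the DNBrg1 fold reached below 2-fold on chromosomes 3 (1.48 to 3.25), 10 (1.46 to 3.00) and 19 (1.85 to 3.31). On chromosome 1 it did not (2.67 to 4.44). As deposited, the intervals on chromosomes 3 (0.949 to 2.08) and 10 (0.934 to 1.92) spanned equal density.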

How the results depend on the processing

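Lower DNBrg1 sites outnumbered higher ones under every setting tried except mean density over all sites. The counts of lower and higher sites were 3263 and 1059 as reported, 10620 and 105 as deposited, and 4511 and 541 with the strongest shared sites centred. They were 2153 and 770 with local bounds, 1599 and 650 for sites in both lists, 1815 and 703 at a common density threshold, and 848 and 118 at 3-fold. With mean in place of peak density they were 7588 and 7997, but the lists have no cutoff on mean density, so bounds do not hold for it. Over sites in both lists, chosen as a setting after the data were seen, mean density gave 1709 and 878. The widest minus the middle class of width had a median log2 difference of 0.25, which was 0.21 with mean density, 0.22 with parental classes, 0.19 with DNCHD4 classes (chosen after the data were seen) and 0.19 at a common threshold. The strongest minus the middle class of strength had 0.29, which was 0.34, 0.18 and 0.14 under the first 3 of these settings. The flattest minus the middle class of shape had 0.04 and -0.0020 with parental classes. Adjacent sites 2 to 10 kb apart had r = 0.18 with mean density, and the log2 width ratio was 0.068, against 0.041, at a common threshold. The cause of these shifts was not tested. The difference for shape thus changed sign with parental classes. Of 52 recomputed values, 29 stayed within 1.5 times the reported count or within the interval of the reported value. No paired analysis was possible because each group has 1 library and the numbers in the titles follow the tetracycline state.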
